A study of Mus musculus with 20 samples.

Results

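Endothelial and angiogenesis genes were described in bulk RNA sequencing of mouse knee joints. The 40 genes were chosen by symbol as markers of blood and lymphatic vessels and as ligands and receptors of vessel growth, and all 40 were found among the 14793 genes of the table. They comprised 14 junction, surface and matrix genes of endothelial cells, 9 receptors and co-receptors, 2 Notch pathway genes, 9 angiogenic ligands, 3 transcription factors, and 3 lymphatic and sinusoidal genes. The joints came from male C57BL/6Nci mice, aged 12 weeks at the start. In every mouse of all 4 groups, controls included, osteoarthritis had been induced in the right knee by destabilization of the medial meniscus (DMM), the surgical release of a meniscal ligament. Each group held 5 joints. The control group received needle insertion alone at weeks 3 and 5 after surgery. The MSC group received 250000 adipose-derived mesenchymal stromal cells per injection, pooled from age-matched male donor mice. The TLR3-MSC and STING-MSC groups received the same cells after 2 h with 10 µg/mL of pIC, a double-stranded RNA analog that activates Toll-like receptor 3, or of 2′3′cGAMP, which activates the STING pathway. The cells were given in phosphate buffered saline, and the controls received neither cells nor this fluid. Injected cells and injected fluid therefore differ from control together in every cell group. In the TLR3-MSC and STING-MSC groups activation differs from control with them. Cartilage, synovium, capsule and adjacent subchondral bone were extracted together. The study's text gives the time of collection both as 8 weeks after surgery and as 24 h after injection.

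Endothelial cells line all vessels and are held together by adherens and tight junctions, to which Cdh5 (VE-cadherin), Pecam1, Esam and Cldn5 belong. They answer vascular endothelial growth factor through Kdr and Flt1 and the angiopoietins through Tek, and Notch signaling between neighboring cells divides a growing sprout into tip and stalk. In the joint, vessels lie in the synovium, capsule, subchondral bone and marrow, whereas articular cartilage has none. In RNA of a whole joint, fewer endothelial cells and less RNA per endothelial cell cannot be told apart.

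The promoters of Aplnr, Kdr and Robo4 are shown because the difference of these genes between STING-MSC and control joints kept its direction and an unadjusted p of at most 0.05 in all 17 alternative fits (other tools, filters and scalings, and each joint left out). Each is the 250 bases before the start of the canonical GENCODE transcript (release vM39, GRCm39, the build of the table), written 5′ to 3′ on the strand of the gene. Capitals mark the core bound by ETS factors, which include the member Erg, as GGAA or its complement TTCC.
Aplnr, chr2:84966319-84966568, plus strand: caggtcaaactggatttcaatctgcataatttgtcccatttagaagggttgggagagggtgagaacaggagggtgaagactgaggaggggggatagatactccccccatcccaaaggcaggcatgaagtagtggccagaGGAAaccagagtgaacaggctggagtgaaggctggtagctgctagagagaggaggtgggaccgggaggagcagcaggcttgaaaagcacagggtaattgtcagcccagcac
Kdr, chr5:76139119-76139368, minus strand: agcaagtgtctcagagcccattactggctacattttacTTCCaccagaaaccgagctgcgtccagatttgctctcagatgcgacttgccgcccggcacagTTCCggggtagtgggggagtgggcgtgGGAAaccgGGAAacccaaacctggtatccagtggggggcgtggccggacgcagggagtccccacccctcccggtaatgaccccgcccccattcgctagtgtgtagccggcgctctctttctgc
Robo4, chr9:37312943-37313192, plus strand: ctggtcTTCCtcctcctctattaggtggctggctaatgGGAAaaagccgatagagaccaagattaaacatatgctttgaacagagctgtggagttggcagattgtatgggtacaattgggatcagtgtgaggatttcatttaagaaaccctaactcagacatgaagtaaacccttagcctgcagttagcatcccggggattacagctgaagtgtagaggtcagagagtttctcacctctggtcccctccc

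The core stood at 1 place in the Aplnr promoter, at 4 in that of Kdr and at 2 in that of Robo4. A match of these letters is a description and not a binding site: the core was in 38 of the 40 members' promoters (95%) and in 93.8% of the 14770 promoters of the same length. With 1 more base on each side, AGGAAG or CTTCCT was in 21 of 40 members (52.5%) and in 29.1% of all promoters, among the 3 shown only in Robo4. The GATA letters GATAAG or CTTATC were in 5 members (12.5%, against 5.23% of all), and the hypoxia response core ACGTG or CACGT in 9 (22.5%, against 19.9%).

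Values, called normalized counts here, are reads per gene that the authors scaled to make the joints comparable, each joint by 1 factor from the median of gene ratios. None of the 40 genes was listed at 0 in any joint. Between 27955496 and 52529973 reads fell on genes in each joint, so counting error was small for all but the faintest members. Levels of different genes can be compared only per length, and per kb of exon the mean normalized count over the 20 joints was highest for Plvap, the protein of the diaphragms in fenestrated endothelium (696 per kb). It was followed by the tight junction gene Cldn5 (651), the ligand Vegfb (604), the lymphatic hyaluronan receptor Lyve1 (596), the ligand Vegfa (580) and the transcription factor Sox18 (464). The faintest were Prox1, the factor of lymphatic identity, at 15.99 per kb, the endothelial nitric oxide synthase Nos3 at 24.9 and the ligand Angpt2 at 29.2. The defining markers of endothelial cells, Pecam1, Cdh5, Tie1, Esam, Egfl7, Cldn5 and Emcn, were all measured well above counting error in every joint. Over the 20 joints of all groups, Lyve1 spanned 13.0-fold between its lowest and highest joint, Prox1 10.0-fold and the ligand Apln 6.48-fold, while Esam spanned 1.78-fold.

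**Figure D1:**
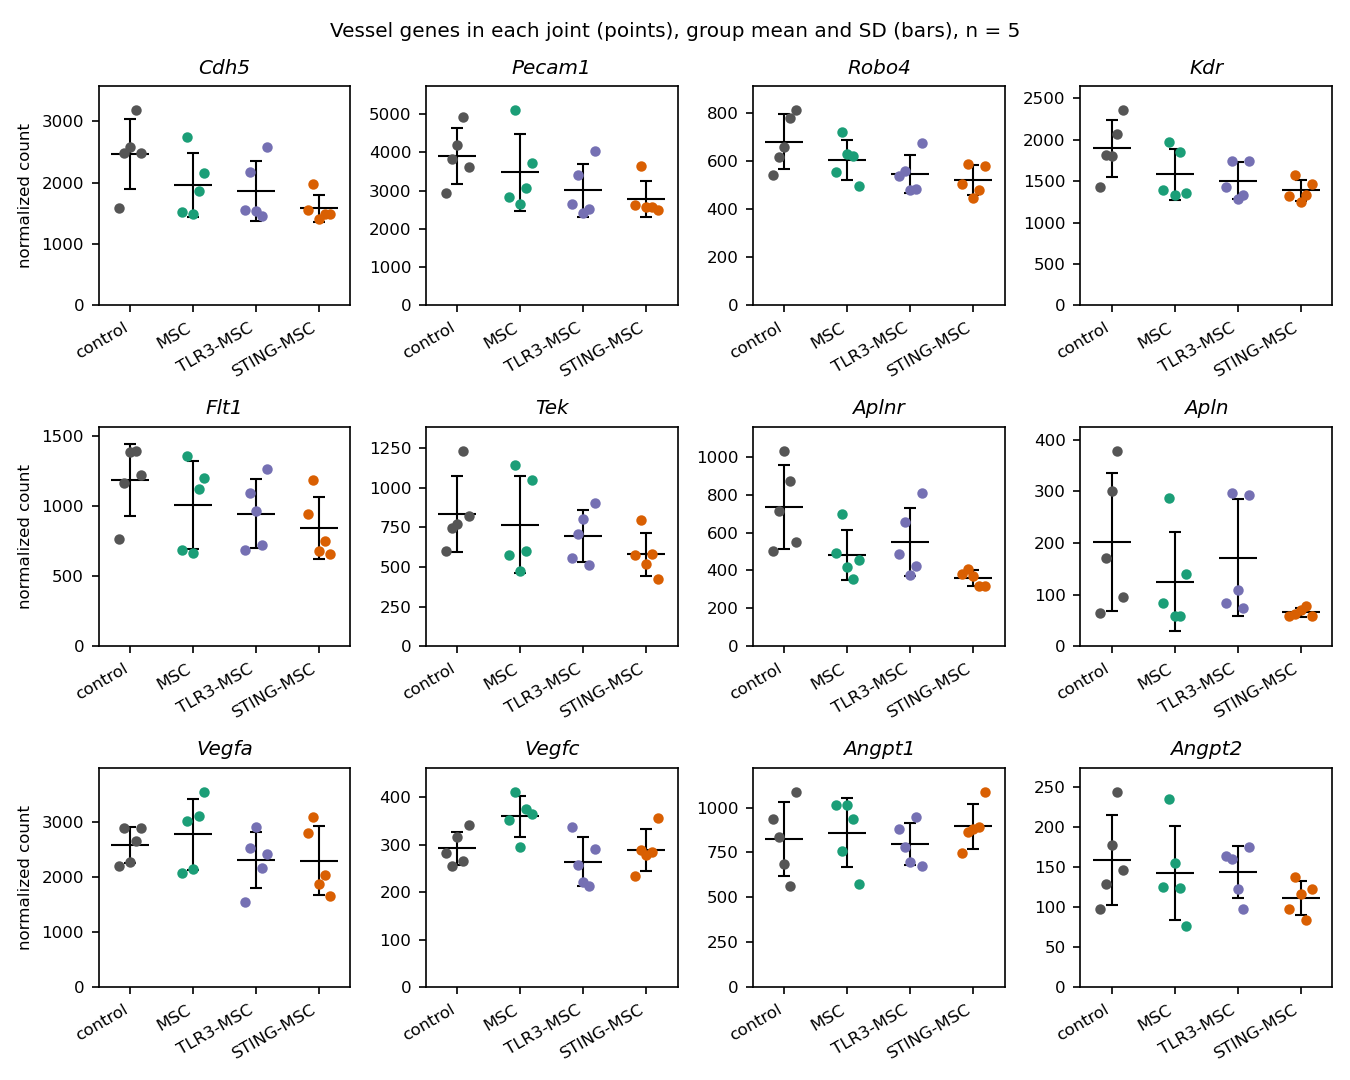
Normalized counts (vertical axes, starting at 0) of 12 vessel genes in each of the 20 joints, with horizontal and vertical bars for the group mean and SD (n = 5 per group). Aplnr sits between 317 and 410 in the STING-MSC joints and between 504 and 1032 in the control joints, whereas Vegfa and Angpt1 overlap in all 4 groups.

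The first question was whether vessel genes differed between joints given activated or resting cells and joints given the needle alone. The limma test ran across the whole table on values transformed as log2(normalized count + 1), and a gene passed when its Benjamini-Hochberg false discovery rate (FDR) over all genes was at most 0.05. No member passed in any of the 6 comparisons between groups. Members were also counted at an unadjusted p of at most 0.05, beside the share of all genes that met it. The study's text names that p or a 2-fold change as its limit, and its captions an FDR of 0.05 with a 2-fold change. Of the members counted below for STING-MSC against control, only Apln also differed by 2-fold or more. The largest difference lay between STING-MSC and control joints, where 17 of 40 members were lower at that cut-off and 0 higher, and among all genes 5.69% were lower and 6.54% higher. The median log2 fold change of the 40 members was -0.44, and that of all genes was 0.01. In 36 of the 40 members the STING-MSC mean was the lower one. The smallest FDR of a member by limma was 0.256. At the unadjusted cut-off edgeR counted 20 members and DESeq2 counted 21 on the reads recovered from the table, and of these DESeq2 passed 1 member, Aplnr, at an FDR of 0.0102. The share of all genes in the edgeR and DESeq2 fits is not given here.

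**Figure D2:**
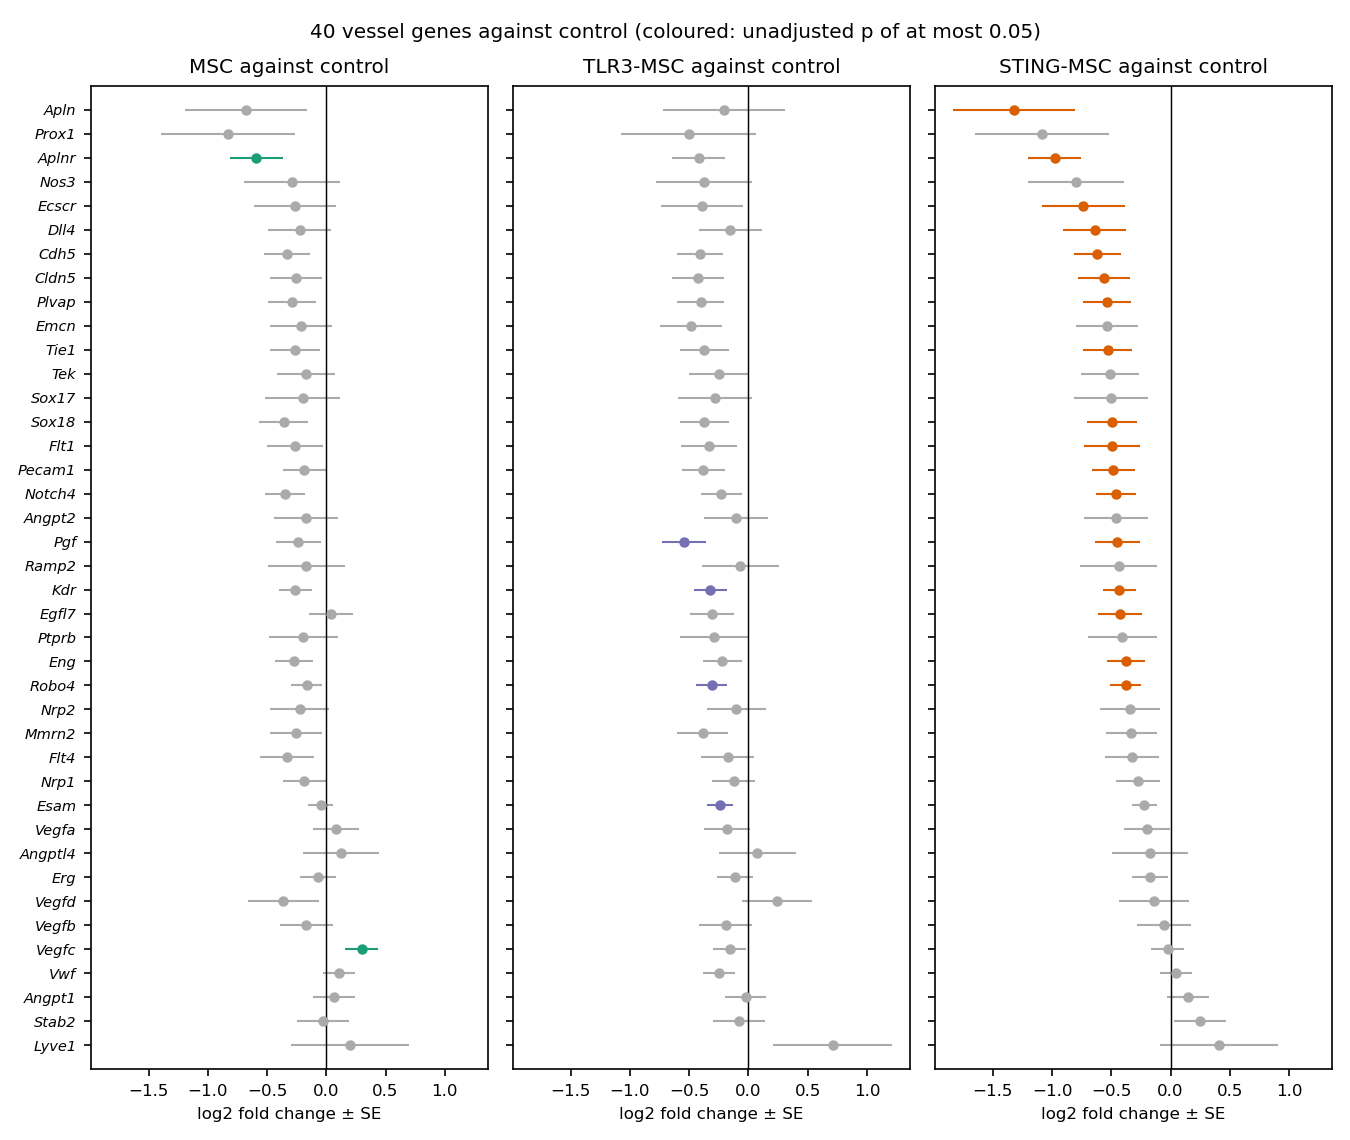
Log2 fold change against control (horizontal axes) with its standard error for each of the 40 genes, ordered by the STING-MSC value (right panel, beside MSC on the left and TLR3-MSC in the middle). Colored points met the unadjusted limma cut-off of 0.05, which 2 genes did in the MSC panel, 4 in the middle and 17 on the right.

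The count of 17 depended on single control joints. Without control replicate 4 the count fell to 5, without control replicate 3 to 7, and without control replicate 1 it reached 24. Control replicate 4 had the highest normalized count of all 20 joints for 20 of the 40 members, and its median member lay 0.65 above the mean of the 20 joints on the log2 scale. Control replicate 1 was the lowest control joint for 30 members. A joint with much vessel RNA also stood in the other groups: MSC replicate 2 was the highest of its group for 31 members, STING-MSC replicate 2 for 29 and TLR3-MSC replicate 5 for 28. MSC replicate 5 listed 296 genes at 0, 239 of them in no other joint, and STING-MSC replicate 5 listed 97, 47 of them in no other. Leaving both of these joints out gave 13 members lower in STING-MSC than in control joints. The share of all genes at the cut-off in these refits is not set beside these counts. Whether the changes in count were particular to the vessel genes can therefore not be read from them.

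Neutrophil markers also differed between the groups, in the opposite direction. Of 10 neutrophil markers such as S100a8 and Mmp8, 8 were higher in STING-MSC than in control joints at the unadjusted cut-off, 7 in MSC and 1 in TLR3-MSC joints. Among all genes 6.54%, 5.64% and 2.68% were higher, in the same order of groups. The sum of the 10 normalized counts ranged from 396261 to 708729 in control joints, from 565701 to 966294 in MSC joints, from 530481 to 820369 in TLR3-MSC joints and from 565665 to 882114 in STING-MSC joints, and no marker was listed at 0. Control replicate 4, with the most vessel RNA, had the lowest neutrophil sum of the 20 joints. Adding the log2 neutrophil sum to the model as a covariate, an analysis chosen after the data were seen, left 1 of the 17 at the cut-off. This was Aplnr (log2 fold change -0.66 ± 0.25, SE, FDR 0.688 by limma). Ptprb, an endothelial phosphatase that was not among the 17, was higher at the cut-off in that fit (0.38 ± 0.17, FDR 0.688 by limma). With the covariate 2.97% of all genes were lower and 4.25% higher, and the median of the 40 members was -0.03. All normalized counts of a joint share 1 scaling factor. The neutrophil sum was drawn from these same scaled counts, and 8 of its 10 markers were themselves higher in STING-MSC joints. Treatment group and neutrophil content therefore cannot be told apart by this fit, and the part of neutrophil content in the difference was not tested.

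**Figure D3:**
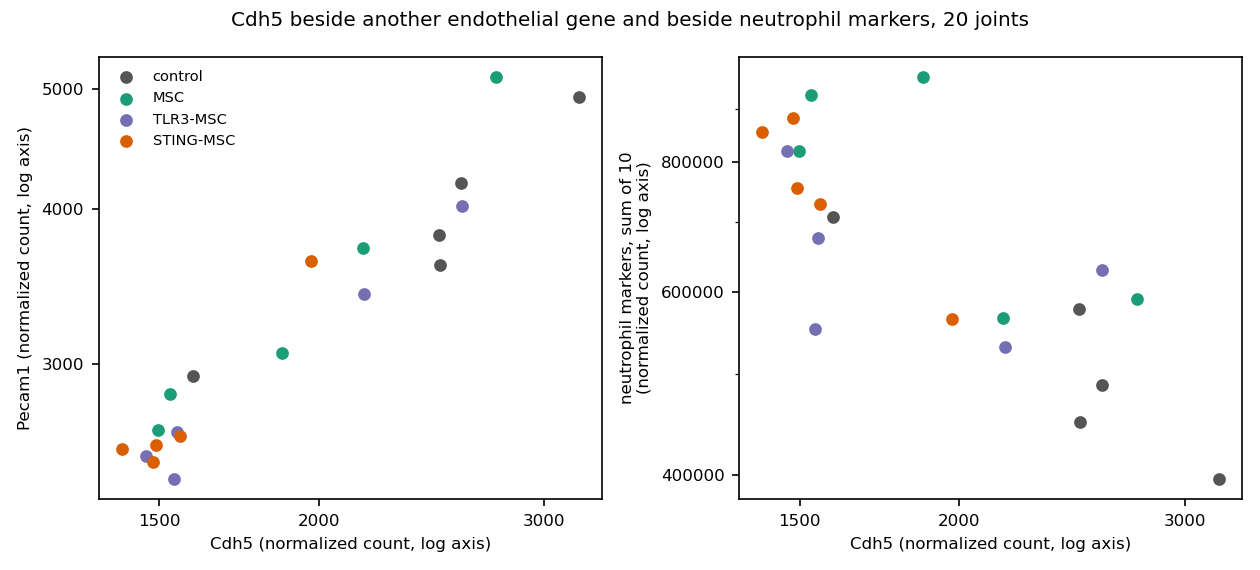
Normalized count of Cdh5 in each of the 20 joints (horizontal, log axis) against that of Pecam1 (left) and against the summed normalized count of 10 neutrophil markers (right, log axis), colored by group. Joints with more Cdh5 had more Pecam1 and tended to have fewer neutrophil reads, and control replicate 4 stands at the high-Cdh5 end with 396261 in the neutrophil sum.

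Among the receptors, 5 of 9 were lower in STING-MSC than in control joints, with a median log2 fold change of -0.43. Aplnr, the apelin receptor of sprouting vessels and veins (chromosome 2, 84966569 to 84970268), differed most. It was at 504, 713, 1032, 869 and 552 normalized counts in control replicates 1 to 5 and at 383, 410, 372, 317 and 319 in STING-MSC replicates 1 to 5. All 5 STING-MSC joints lay below every control joint. The mean was 734 ± 220 (SD, n = 5) in control and 360 ± 40.7 in STING-MSC joints, which is -0.98 ± 0.22 as log2 fold change (SE, p = 0.000321, FDR 0.256 by limma), and the exact two-sided permutation test gave p = 0.00794, the smallest that 5 joints against 5 allow. Over the 17 alternative fits its log2 fold change stayed between -1.10 and -0.84, and only 17 of the 14793 genes had a smaller unadjusted p in this comparison. Its MSC joints, at 491, 697, 416, 354 and 454, were also lower than control (-0.59 ± 0.22, p = 0.0159, FDR 0.423, exact permutation p = 0.0476), with 4 of 5 below every control joint. Without control replicate 3 the MSC difference was -0.46 and missed the cut-off. The TLR3-MSC joints ranged from 375 to 809 and overlapped the controls.

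Kdr, the main growth factor receptor of endothelium (chromosome 5, 76093487 to 76139119), was at 1424, 1812, 1801, 2068 and 2363 in the control joints and at 1324, 1574, 1243, 1336 and 1461 in the STING-MSC joints. Only control replicate 1 lay within the STING-MSC range, and 3 of 5 STING-MSC joints were below every control joint. The log2 fold change was -0.43 ± 0.14 (p = 0.00595, FDR 0.307 by limma, exact permutation p = 0.0238). Flt1, the decoy receptor that binds the same ligand, had means of 1183 ± 256 in control and 843 ± 221 in STING-MSC joints, with STING-MSC replicates 3, 4 and 5 at 676, 751 and 661 below every control joint. Its difference of -0.49 ± 0.23 stood at the edge of the cut-off (p = 0.0496, FDR 0.408 by limma, exact permutation p = 0.0714). Tie1, an orphan receptor that pairs with Tek, had 1561 ± 408 in control and 1061 ± 176 in STING-MSC joints (-0.53 ± 0.21, p = 0.0198, FDR 0.365 by limma, exact permutation p = 0.0238). Eng, a co-receptor of the TGF-β family, had 3432 ± 779 and 2587 ± 178 (-0.38 ± 0.16, p = 0.0292, FDR 0.377 by limma, exact permutation p = 0.0397). Tek itself was at 600, 748, 773, 1234 and 823 in control joints and at 578, 796, 518, 583 and 425 in STING-MSC joints. Although 4 STING-MSC joints lay below every control joint, the difference of -0.51 ± 0.25 missed the cut-off (p = 0.0511, FDR 0.410 by limma, exact permutation p = 0.0556). Flt4, Nrp1 and Nrp2 had log2 fold changes of -0.32, -0.27 and -0.34, none at the cut-off.

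Among the junction, surface and matrix genes, 7 of 14 were lower in STING-MSC than in control joints (median log2 fold change -0.46). Cdh5, the cadherin of endothelial adherens junctions (chromosome 8, 104828257 to 104871144), was at 1594, 2480, 2585, 3193 and 2486 in the control joints and at 1556, 1973, 1402, 1492 and 1483 in the STING-MSC joints. STING-MSC replicate 2 alone exceeded the lowest control joint. The log2 fold change was -0.62 ± 0.20 (p = 0.00543, FDR 0.303 by limma, exact permutation p = 0.0159). Pecam1, an adhesion molecule of the same junctions, was at 2930, 3814, 4199, 4931 and 3607 in control and at 2621, 3632, 2557, 2576 and 2496 in STING-MSC joints (-0.48 ± 0.18, p = 0.0161, FDR 0.354 by limma, exact permutation p = 0.0238). Again 4 STING-MSC joints lay below every control joint, and replicate 2 lay within the control range. Robo4, a receptor that stabilizes vessels (chromosome 9, 37313193 to 37326412), was at 543, 617, 659, 780 and 816 in control and at 506, 591, 449, 481 and 582 in STING-MSC joints, and 3 STING-MSC joints lay below every control joint (-0.38 ± 0.13, p = 0.00858, FDR 0.326 by limma, exact permutation p = 0.0317).

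Cldn5 had means of 1134 ± 328 and 748 ± 103 in control and STING-MSC joints, with 4 of 5 STING-MSC joints below every control joint (-0.56 ± 0.22, p = 0.0189, FDR 0.363 by limma, exact permutation p = 0.0159). Plvap had 3267 ± 709 and 2218 ± 280 (-0.54 ± 0.20, p = 0.0152, FDR 0.348 by limma, exact permutation p = 0.0238). Egfl7, a secreted matrix protein of endothelium, had 819 ± 193 and 601 ± 88.0 (-0.43 ± 0.19, p = 0.0334, FDR 0.382 by limma, exact permutation p = 0.0397). Ecscr, an endothelial surface protein, was the faintest of the 7, at 109, 187, 227, 325 and 153 in control and at 135, 172, 105, 88.7 and 81.5 in STING-MSC joints (-0.74 ± 0.35, p = 0.0478, FDR 0.403 by limma, exact permutation p = 0.0556). Of these, Cldn5, Plvap, Egfl7, Ecscr and Pecam1 missed the cut-off without control replicate 4, as did Flt1, Tie1 and Eng among the receptors. The other 7 genes of this role, Esam, Emcn, Vwf, Mmrn2, Ptprb, Nos3 and Ramp2, ranged in log2 fold change from -0.80 for Nos3 to 0.04 for Vwf. In Esam 4 of 5 STING-MSC joints lay below every control joint, but limma narrowly missed the cut-off (p = 0.0524 by limma, exact permutation p = 0.0159). The same held for Emcn (4 of 5, p = 0.0538 by limma, exact permutation p = 0.0714). Vwf, the clotting factor stored by endothelial cells and also made by megakaryocytes, was at 6525 ± 902 in control and 6732 ± 956 in STING-MSC joints.

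Both Notch pathway genes were lower in STING-MSC joints. Dll4, the ligand of tip cells, was at 158, 260, 254, 293 and 212 in control and at 101.0, 208, 140, 137 and 173 in STING-MSC joints, of which 3 were below every control joint (-0.64 ± 0.27, p = 0.0270, FDR 0.374 by limma, exact permutation p = 0.0317). Notch4, a receptor found mainly in endothelium, had 454 ± 101.1 and 325 ± 31.6 (-0.46 ± 0.17, p = 0.0144, FDR 0.345 by limma, exact permutation p = 0.0238). Without control replicate 3 neither met the cut-off, and without control replicate 4 Dll4 missed it. Of the 3 transcription factors, Sox18 was lower, at 931 ± 239 in control and 642 ± 44.5 in STING-MSC joints (-0.50 ± 0.21, p = 0.0282, FDR 0.374 by limma, exact permutation p = 0.0556). No STING-MSC joint lay below the lowest control joint, at 573, and the difference missed the cut-off without control replicate 2, 3 or 4. Sox17 and Erg differed by -0.50 and -0.17 on the log2 scale, neither at the cut-off.

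Many cells other than endothelium make the ligands. Of the 9, 2 were lower in STING-MSC joints at the cut-off, and the median log2 fold change was -0.17. Whether ligands differed from the other roles was not tested. Apln, the ligand of Aplnr that tip cells secrete, had the largest fold change of all members. It was at 65.6, 172, 300, 379 and 95.3 in the control joints and at 59.0, 63.6, 69.9, 78.7 and 58.5 in the STING-MSC joints. The STING-MSC joints clustered at the level of the lowest control joint, and the control joints spread over a wide range. The log2 fold change was -1.32 ± 0.51 (p = 0.0189, FDR 0.363 by limma, exact permutation p = 0.0238), and it missed the cut-off without control replicate 3 or 4. Pgf, a ligand of Flt1, was at 102, 107.5, 151, 167 and 92.5 in control and at 80.0, 88.1, 84.5, 81.2 and 109 in STING-MSC joints, so 4 STING-MSC joints lay below every control joint (-0.45 ± 0.19, p = 0.0272, FDR 0.374 by limma, exact permutation p = 0.0397). It missed the cut-off without control replicate 3 or 4.

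Vegfa, the main ligand of Kdr, was not separated between groups. Its means were 2585 ± 328 in control, 2779 ± 644 in MSC, 2313 ± 508 in TLR3-MSC and 2299 ± 620 in STING-MSC joints, and the STING-MSC joints ranged from 1664 to 3100 around control joints of 2210 to 2893 (-0.20 ± 0.19, FDR 0.702 by limma, exact permutation p = 0.294). Angpt1, the Tek agonist made by perivascular and stromal cells, was at 823 ± 205, 860 ± 190, 795 ± 116 and 895 ± 124 in the same order of groups, and the groups overlapped throughout. Angpt2, its context-dependent antagonist, was at 159 ± 56.1, 143 ± 58.8, 144 ± 32.2 and 112 ± 21.3, and its lowest mean, in STING-MSC joints, differed from control by -0.46 ± 0.27 (FDR 0.506 by limma, exact permutation p = 0.111). Vegfb, Vegfd and Angptl4 had log2 fold changes of -0.06, -0.14 and -0.17 between STING-MSC and control joints. Of the 3 lymphatic and sinusoidal genes 0 met the cut-off. Prox1 was at 207 ± 156 in control and 84.6 ± 29.4 in STING-MSC joints, and 4 of 5 STING-MSC joints lay below every control joint (-1.09 ± 0.57, p = 0.0705, FDR 0.450 by limma, exact permutation p = 0.0317). Lyve1 and Stab2, a scavenger receptor of sinusoids, were higher in the mean by 0.41 ± 0.50 and 0.25 ± 0.22.

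Unactivated and TLR3-activated cells were set beside the same control joints, so these comparisons share their controls with the one above. After MSC, 1 member was lower and 1 higher, beside 2.91% and 5.64% of all genes, and the median log2 fold change was -0.22 against -0.04 for all genes. The lower one was Aplnr, described above. The higher one was Vegfc, the growth factor of lymphatic vessels, at 283, 255, 315, 267 and 341 in control and at 351, 412, 295, 376 and 365 in MSC joints, so 4 MSC joints lay above every control joint (0.30 ± 0.14, p = 0.0441, FDR 0.573 by limma, exact permutation p = 0.0317). The count of 2 reached 10, all lower, without MSC replicate 2. It was 6, all lower, without control replicate 1, and 1 without any of control replicates 2, 3 and 4 and MSC replicates 1 and 5. The share of all genes at the cut-off in either direction moved too. This share was 8.55% in the reported fit, 16.7% without MSC replicate 2, 11.2% without control replicate 1 and 13.0% without MSC replicate 5. With the neutrophil sum as covariate 5 members were higher, Ptprb, Tek, Egfl7, Vegfa and Ramp2, and 0 lower, beside 3.96% and 8.71% of all genes.

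After TLR3-MSC, 4 members were lower and 0 higher than control, beside 0.906% and 2.68% of all genes, with a median of -0.25 against -0.01 for all genes. Pgf was at 91.0, 94.6, 79.1, 62.1 and 89.3 in TLR3-MSC joints, and 4 of these lay below every control joint (-0.55 ± 0.19, p = 0.00920, FDR 1.00 by limma, exact permutation p = 0.0159). Its direction and its side of the cut-off were kept in all 17 alternative fits. Robo4 was at 541, 559, 483, 485 and 677 (-0.31 ± 0.13, p = 0.0270, FDR 1.00 by limma, exact permutation p = 0.0714), and Kdr at 1427, 1741, 1284, 1331 and 1737 (-0.32 ± 0.14, p = 0.0317, FDR 1.00 by limma, exact permutation p = 0.0556). Esam, an adhesion molecule of tight junctions, was at 797, 872, 643, 743 and 937, beside control joints at 827, 922, 974, 953 and 1010 (-0.24 ± 0.11, p = 0.0365, FDR 1.00 by limma, exact permutation p = 0.0556). For all 3 of these the groups overlapped. The count of 4 was 15 without control replicate 1 or without TLR3-MSC replicate 5, 7 without TLR3-MSC replicate 2, 2 without control replicate 5, and 1 without control replicate 4 or TLR3-MSC replicate 3 or 4. Of all genes, 5.48% met the cut-off in either direction without control replicate 1, against 3.58% in the reported fit. The shares in the other refits named here are not set beside their counts. Cdh5 was at 1549, 2170, 1542, 1466 and 2586 in TLR3-MSC and at 1530, 2752, 1497, 1873 and 2164 in MSC joints, with differences from control of -0.41 ± 0.20 (FDR 1.00 by limma, exact permutation p = 0.111) and -0.33 ± 0.20 (FDR 0.662 by limma, exact permutation p = 0.206).

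Pecam1 was at 3476 ± 1000.3 in MSC and 3005 ± 691 in TLR3-MSC joints, and Tek at 768 ± 305 and 697 ± 164. Flt1 was at 1004 ± 312 and 945 ± 245 in these groups. None of the 3 met the cut-off against control in either group.

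The remaining question was whether the way the cells were activated mattered. Between STING-MSC and MSC joints, 2 members were lower and 0 higher, beside 2.17% and 2.77% of all genes. Egfl7 was at 648, 1145, 623, 811 and 1012 in MSC and at 568, 756, 545, 582 and 552 in STING-MSC joints, of which 4 were below every MSC joint (-0.47 ± 0.19, p = 0.0215, FDR 0.930 by limma, exact permutation p = 0.0556). Vegfc was at 233, 289, 277, 284 and 357 in STING-MSC joints, again with 4 below every MSC joint (-0.32 ± 0.14, p = 0.0305, FDR 0.938 by limma, exact permutation p = 0.0238). Without MSC replicate 2 neither met the cut-off, and without STING-MSC replicate 1 or 3 only 1 did. With the neutrophil sum as covariate 6 members were lower and 0 higher, Egfl7, Tek, Vegfc, Pecam1, Cldn5 and Cdh5, beside 3.31% and 4.87% of all genes. Between TLR3-MSC and MSC joints, 2 members were lower and 0 higher, beside 1.99% and 1.89% of all genes. Vegfc was at 337, 258, 223, 212 and 290 in TLR3-MSC joints (-0.46 ± 0.14, p = 0.00386, FDR 0.978 by limma, exact permutation p = 0.0159), a difference kept in all 17 alternative fits. Vwf was at 6448, 6596, 6951, 7152 and 7774 in MSC and at 7113, 5707, 3818, 5495 and 5605 in TLR3-MSC joints (-0.36 ± 0.14, p = 0.0172, FDR 0.978 by limma, exact permutation p = 0.0317). TLR3-MSC replicate 3 was the lowest of the 20 joints, and without it the Vwf difference was -0.23 and missed the cut-off. The count of 2 was 5 without MSC replicate 5 and 4 without TLR3-MSC replicate 5. With the neutrophil sum as covariate 11 members were lower and 0 higher, beside 2.01% and 3.36% of all genes, and the median log2 fold change was -0.27. Egfl7 had the smallest p of the 11 (-0.53 ± 0.14, FDR 0.751 by limma).

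Between STING-MSC and TLR3-MSC joints, 2 members were lower and 1 higher, beside 1.78% and 0.784% of all genes. The lower pair were ligand and receptor of the apelin pathway. Aplnr was at 489, 657, 375, 425 and 809 in TLR3-MSC joints (-0.56 ± 0.22, p = 0.0213, FDR 0.890 by limma, exact permutation p = 0.0238), and Apln at 83.4, 296, 110, 74.6 and 293 (-1.11 ± 0.51, p = 0.0435, FDR 0.890 by limma, exact permutation p = 0.0159). In Apln 4 of 5 STING-MSC joints lay below every TLR3-MSC joint. Vwf was higher in the STING-MSC joints, at 6568, 7074, 5400, 6580 and 8040 (0.30 ± 0.14, p = 0.0439, FDR 0.890 by limma, exact permutation p = 0.135). None of the 3 met the cut-off without TLR3-MSC replicate 2 or 5, and without STING-MSC replicate 1 or 5 only 1 did. A moderated F-test over the 4 groups put 6 members at the unadjusted cut-off, Aplnr, Vegfc, Kdr, Cdh5, Robo4 and Pgf, beside 6.42% of all genes. Aplnr had the smallest p there (0.00304, FDR 0.495 by limma). The 6 were 15 without control replicate 1, 13 without TLR3-MSC replicate 5, 11 without MSC replicate 2, and 2 or 3 without any of control replicates 3, 4 and 5, TLR3-MSC replicates 3 and 4 and STING-MSC replicates 1, 3 and 4. The share of all genes in these refits is not given here, so a change particular to the vessel genes cannot be read from these counts.

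**Figure D4:**
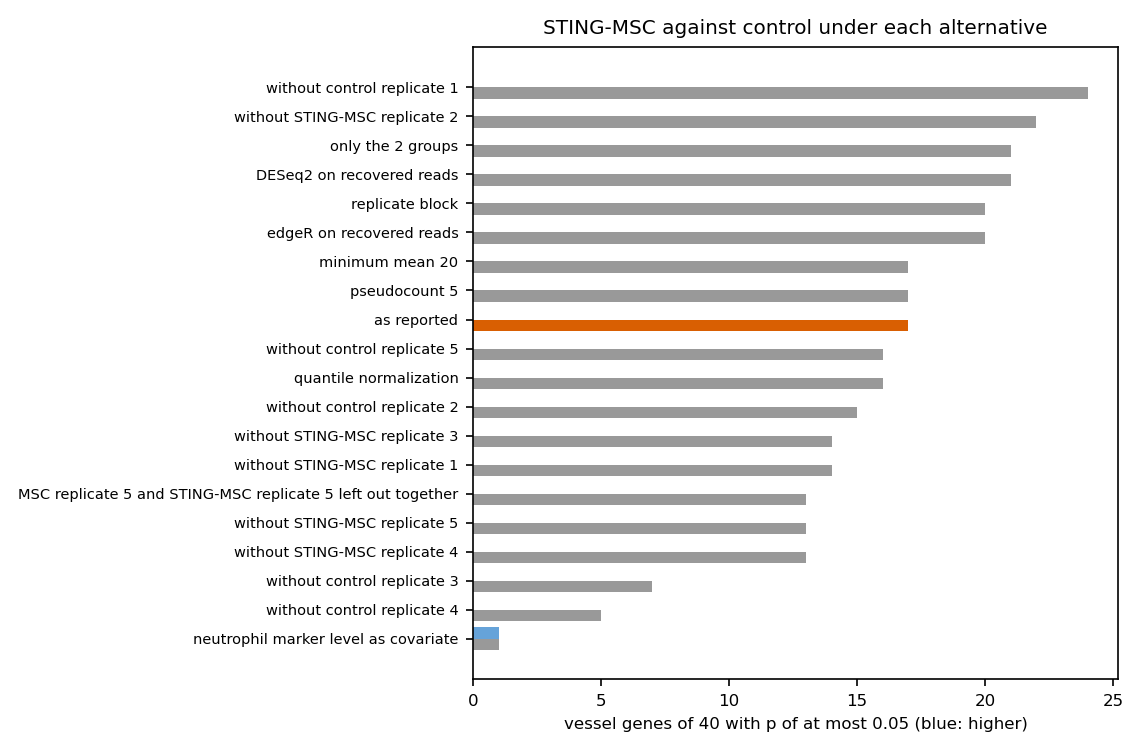
Number of the 40 genes that met the unadjusted cut-off of 0.05 between STING-MSC and control joints (horizontal axis, starting at 0) in the reported fit (orange, 17 genes lower) and in each alternative (gray lower, blue higher). The count falls to 5 without control replicate 4 and to 1 lower and 1 higher with the neutrophil covariate.

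The vessel genes varied together from joint to joint. After the group means were subtracted, the log2 levels of the other 39 members were correlated with Cdh5 over the 20 joints, with p from 100000 permutations within groups and adjusted over the 39. The median Pearson's r was 0.77, and over all 14792 other genes it was 0.05. In 17 of 39 members (43.6%) r was 0.8 or more, as it was in 1.34% of all genes. Pecam1 was closest to Cdh5, with r = 0.96 and Spearman's rho = 0.98 (both permutation p = 1e-05, the smallest these permutations can give, and r = 0.96 without the joints farthest in Cdh5, control replicate 4 and MSC replicate 2). Tie1 and Mmrn2, a matrix glycoprotein of endothelium, followed with r = 0.95 and 0.94. In 31 members the adjusted p of r was at most 0.05, 30 with a positive and 1 with a negative r.

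Of the 17 with r of 0.8 or more, 8 were junction, surface and matrix genes and 5 were receptors, and Apln was the only ligand. Aplnr had r = 0.77 and rho = 0.72 (permutation p = 0.00100 and 0.00243, adjusted 0.00195 and 0.00431, and r = 0.70 without the joints farthest in Cdh5). Vegfa had r = 0.54 and rho = 0.52 (permutation p = 0.0191 and 0.0288, adjusted 0.0248 and 0.0388, r = 0.56 without those joints). Vegfc, Vegfb and Vegfd had r between 0.22 and 0.29, with adjusted permutation p between 0.281 and 0.487. Angpt1 ran opposite to Cdh5, with r = -0.60 and rho = -0.63 (permutation p = 0.0166 and 0.00718, adjusted 0.0231 and 0.0108, r = -0.53 without those joints). Vwf and Lyve1, at r = 0.04 and 0.03, did not track Cdh5, and Stab2 had r = -0.51 (permutation p = 0.0561, adjusted 0.0684).

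**Figure D5:**
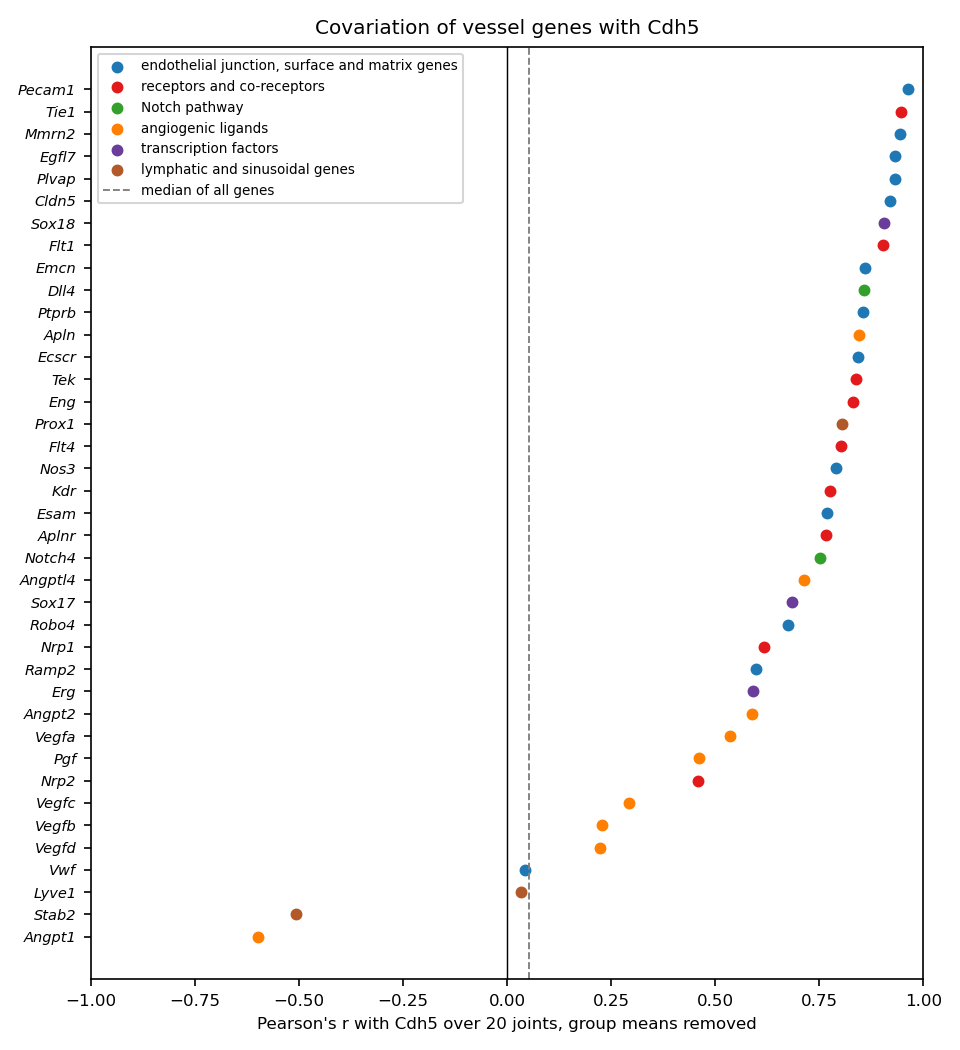
Pearson's r of each of 39 vessel genes with Cdh5 over the 20 joints after subtraction of group means (horizontal axis), colored by role, with a dashed line at the median of all genes (0.05). Pecam1 stands at 0.96, Vwf and Lyve1 lie near 0, and Angpt1 lies at -0.60.

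The same was computed for 14 lists of markers of other cell types, a family chosen after the data were seen. The neutrophil sum ran opposite to Cdh5 within groups (r = -0.74 and rho = -0.74, both permutation p = 0.00098, both adjusted 0.0137, r = -0.67 without control replicate 4 and MSC replicate 2). The T and NK cell sum and the erythroid sum each had r = -0.63 (permutation p = 0.0119 and 0.0142, both adjusted 0.0498), and the osteoblast and osteocyte sum had r = 0.64 (permutation p = 0.0104, adjusted 0.0498). Their rho values were -0.68, -0.63 and 0.56 in that order (adjusted permutation p = 0.0320, 0.0348 and 0.0540). The pericyte and smooth muscle sum, from cells that wrap vessels, had r = 0.51 and rho = 0.59 (adjusted permutation p = 0.0627 and 0.0348). Other lists came as close. The chondrocyte sum had r = 0.57 and rho = 0.48 (adjusted permutation p = 0.0627 and 0.126). The synovial fibroblast sum had r = 0.49 and rho = 0.63 (adjusted permutation p = 0.0782 and 0.0348), and the B lineage sum r = -0.52 and rho = -0.58 (adjusted permutation p = 0.0627 and 0.0348). Of the 12 measured markers in the pericyte and smooth muscle list, 2 were lower in STING-MSC than in control joints, beside 5.69% of all genes. They were Notch3 (-0.38 ± 0.17, FDR 0.382 by limma) and Pdgfrb (-0.52 ± 0.24, FDR 0.398 by limma). The summed pericyte list ranged from 65441 to 92636 in control and from 45947 to 113175 in STING-MSC joints, and so overlapped. Synovial fibroblast markers were lower in 3 of 8, led by Lum (-1.71 ± 0.58, FDR 0.325 by limma), and their sum ranged from 209032 to 733051 in control and from 62445 to 250235 in STING-MSC joints. The part of these cells in the difference of the vessel genes was not tested.

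Vessel genes outside the 40 were read from 3 further lists and 1 list of hypoxia-induced genes. Among all genes, 5.69% were lower and 6.54% higher in STING-MSC than in control joints at the unadjusted cut-off. In STING-MSC against control joints, 8 of 27 further endothelial genes were lower and 0 higher (median -0.30), led by the adhesion receptors Adgrl4 (-0.56 ± 0.17, FDR 0.291 by limma) and Adgrf5 (-0.46 ± 0.17, FDR 0.353 by limma). Of 12 arterial and venous genes, 4 were lower and 1 higher. Sema3g, an arterial semaphorin, was lower (-0.72 ± 0.26, FDR 0.336 by limma), and Bmx, a kinase of arterial endothelium and of myeloid cells, was higher (0.50 ± 0.13, FDR 0.288 by limma). Of 35 further angiogenesis genes, 10 were lower and 2 higher. The matricellular inhibitor Thbs2 was lower (-1.32 ± 0.46, FDR 0.330 by limma) and Notch1 was higher (0.32 ± 0.08, FDR 0.289 by limma). Of 19 hypoxia-induced genes 0 were lower and 2 higher, the glycolytic regulator Pfkfb4 (0.37 ± 0.08, FDR 0.208 by limma) and the oxidoreductase Ero1a (0.33 ± 0.13, FDR 0.360 by limma).

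Bmx, Notch1 and Pfkfb4 were higher than control also after MSC and after TLR3-MSC, by 0.52, 0.36 and 0.19 and by 0.31, 0.21 and 0.21 on the log2 scale, all at the unadjusted cut-off against the same control joints. After MSC, 3 of 27 further endothelial genes were lower, beside 2.91% of all genes. Clec14a (-0.58 ± 0.24) and Shank3 (-0.29 ± 0.13) led them. Of 35 further angiogenesis genes, 2 were lower and 2 higher after MSC, beside 2.91% and 5.64% of all genes. The adrenomedullin receptor Calcrl (-0.57 ± 0.24, FDR 0.520 by limma) was among the lower and Notch1 among the higher. After TLR3-MSC, 2 of 27 further endothelial genes were lower and 0 higher, Gimap4 (-0.41 ± 0.16) and the capillary receptor Cd300lg (-0.21 ± 0.09). Of 35 further angiogenesis genes 0 were lower and 3 higher, among them the hepatocyte growth factor receptor Met (0.27 ± 0.10). Among all genes 0.906% were lower and 2.68% higher. In STING-MSC against MSC joints 3 of 27 further endothelial genes were lower and 0 higher, led by the sphingosine phosphate receptor S1pr1 (-0.44 ± 0.16, FDR 0.865 by limma). Of 12 arterial and venous genes 0 were lower and 1 higher, the leukocyte adhesion molecule Sele (0.74 ± 0.26, FDR 0.852 by limma). Among all genes 2.17% were lower and 2.77% higher. None of these genes passed at an FDR of 0.05.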

How the data were processed

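Knee joints of 20 mice were analysed, 5 in each of 4 groups taken from the sample labels. The authors aligned reads to GRCm39 with STAR (version 2.7.3a) and counted them per gene with HTSeq. What the authors deposited is a normalized signal, the counts scaled in each joint by 1 median-ratio factor; their filter on low genes is not given in the sources used here. Positions are printed as deposited. At a tolerance of 0.1 read, 99.8% or more of the deposited normalized values in each joint could be turned back into whole reads, which gave the depth and the input of edgeR and DESeq2.

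The main test was limma (3.58.1, R 4.3.3) (trend option), on log2(normalized count + 1) without a filter, over all 20 joints and 14793 genes. FDR was by Benjamini-Hochberg over all genes. Alternatives were edgeR (4.0.16), DESeq2 (1.42.0), a pseudocount of 5, a minimum mean of 20, quantile normalization, only the 2 groups compared, a replicate block, and leaving out each joint. The exact permutation test used all 252 splits, and 240 were run, with no adjustment of their p. The scripts were tested on simulated data. Members with an unadjusted p of at most 0.05, and 8 core members, are described in full. Genes of other lists are named only from the 2 smallest p of a list and comparison at that cut-off. Not all of these are named. The 40 members and all lists were chosen with earlier results of these data known. Replicates are different mice. Equal replicate numbers did not pair joints: same-numbered joints deviated together with mean correlations from -0.14 to 0.11 per comparison. In the covariation with Cdh5, r was computed on log2(normalized count + 1) with numpy (2.4.6) and scipy (1.17.1). A further promoter that met the same rule is not reported here.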

Additional observations from a re-analysis of the deposited data

Results flagged for a closer look

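Within groups of 5 joints, 9 of the 96 sets of values examined for the 24 genes given in full had a joint set apart from the other 4 by more than 0.71 of the group's range, the limit of Dixon's test. Chance gives about 1 in 20, or 4.8 of 96, and the 9 are not independent, since these genes vary together. In STING-MSC replicate 2, Pecam1 stood at 3632 with the next joint at 2621, Cdh5 at 1973 with the next at 1556, Esam at 877 with the next at 796, Cldn5 at 927 with the next at 741, and Egfl7 at 756 with the next at 582. In MSC replicate 2, Plvap stood at 4184 with the next joint at 2584, Eng at 3964 with the next at 2765, and Sox18 at 1083 with the next at 692. Pgf stood at 109 in STING-MSC replicate 5, with the next at 88.1. All are normalized counts, and in each the joint apart was the highest of its group. Without STING-MSC replicate 2, 22 members in place of 17 were lower than in control joints at the unadjusted cut-off. The share of all genes in that refit is not given here.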

How the results depend on the processing

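Of the 30 member differences at the unadjusted cut-off, none changed direction in the 510 runs of the 17 alternative fits, 417 of which kept the cut-off and 93 lost it. In these, 6 kept it in all 17 (Aplnr, Cdh5, Kdr and Robo4 in STING-MSC and Pgf in TLR3-MSC joints against control, and Vegfc in TLR3-MSC against MSC joints). Without control replicate 4, 16 of the 23 differences from control lost it, and without control replicate 3, 12 did. The count for STING-MSC against control (17) ranged from 5 to 24 when 1 joint was left out, and that for TLR3-MSC against control (4) from 1 to 15, for MSC against control (2) from 1 to 10, for STING-MSC against MSC (2) from 0 to 3, for TLR3-MSC against MSC (2) from 1 to 5, for STING-MSC against TLR3-MSC (3) from 0 to 4 and for the F-test (6) from 2 to 15. The share of all genes at the cut-off moved with the joint left out as well, for MSC against control from 5.76% to 16.7%. Quantile normalization gave 7 for TLR3-MSC against control and 5 for TLR3-MSC against MSC. The replicate block gave 7 for TLR3-MSC against control and 20 for STING-MSC against control, and since equal numbers are different mice it is a check only. Apart from the shares printed here and above, the share of all genes in each refit is not set beside these counts.

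The following alternatives were added after the data were seen. With the neutrophil sum as covariate the counts against control were 5 in MSC joints, 2 in TLR3-MSC joints and 2 in STING-MSC joints, and the others were 6 for STING-MSC and 11 for TLR3-MSC against MSC, and 1 for STING-MSC against TLR3-MSC. The 2 in TLR3-MSC joints were Pgf, lower, and Lyve1, higher, beside 3.39% and 4.68% of all genes. Between STING-MSC and TLR3-MSC joints the 1 was Mmrn2, higher, beside 1.06% of all genes. Directions and shares for the other comparisons are given above. With that covariate, 6 of the 30 differences kept the cut-off, 22 lost it and 2 changed sign, Ecscr (0.0648) and Flt1 (0.0456) in STING-MSC against control. Without MSC replicate 5 and STING-MSC replicate 5 together, the count was 1 for MSC against control, 4 for TLR3-MSC against MSC and 0 for STING-MSC against TLR3-MSC. The cause was not tested. With 5 joints a group, differences smaller than the spread between joints could not be shown.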
